A study of Homo sapiens with 1 sample.

Results

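Nuclear long noncoding RNAs (lncRNAs) and snoRNA host genes were examined in human neural progenitor cells (NPCs). The 8 genes were listed by symbol, namely the nuclear lncRNAs MALAT1, NEAT1 and TUG1 and the snoRNA host genes GAS5, SNHG1, SNHG5, SNHG6 and SNHG8. Of these, 3 of 8 (MALAT1, NEAT1 and SNHG8) had a row among the 33538 genes of the count table. The other 5 had no row in the gene list used here, whether sought by symbol or by Ensembl identifier, and were not analysed here. What follows is therefore a description of 2 nuclear lncRNAs and 1 snoRNA host gene.

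MALAT1 RNA collects at nuclear speckles, the bodies that store splicing factors, and it is among the most abundant noncoding RNAs of many cell types. NEAT1 RNA is the scaffold of paraspeckles, nuclear bodies built from RNA-binding proteins such as SFPQ and NONO. NEAT1 is a known target of the p53 pathway, and its transcript rises in many cell types under stress. SNHG8 carries a small nucleolar RNA, SNORA24, within an intron. The snoRNA guides pseudouridylation of ribosomal RNA, while the spliced host transcript goes to the cytoplasm. Transcripts of several snoRNA host genes start with a pyrimidine tract like that of ribosomal protein mRNAs and are removed by nonsense-mediated RNA decay (NMD).

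The study asked how HAR123, a human accelerated region within the NMD gene SMG6, acts in NPC generation. The library used here came from H9 human embryonic stem cells with the human sequence (hHAR123, genotype WT), and the libraries of other genotypes were not analysed here. Cells received ROCK inhibitor at the start and 1 μM Dorsomorphin with 10 μM SB431542, in N2 medium, for 2 days as a monolayer and 5 days as rotated aggregates. They were then replated for 7 days and collected ahead of rosette selection, dead cells were depleted, and independent clones were mixed before loading. With 1 group, 1 library and no replicate, no test was run. Every interval below is a 95% interval. Those of levels and ratios cover the error of counting UMIs alone, those of shares of cells cover the drawing of cells from this 1 library, and none covers the spread between cultures.

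The filter on 2000 to 10000 detected genes and a mitochondrial share of UMIs (unique molecular identifiers, the counted molecules) below 0.1 kept 13925 of 14726 barcodes. Kept cells had 3167 to 118188 UMIs (median 17900). Leiden clustering gave 11 clusters in 3 classes. Forebrain NPC-like cells (12302 cells, clusters 1 to 5, 7, 8 and 10) had a median of 17081 UMIs. Contractile NPC-like cells (1517 cells, clusters 6 and 9) had a median of 48176 UMIs, and all 8 contractile markers were at least 1.5-fold higher in them than in forebrain NPC-like cells. Those markers also served to name the class, so their higher level was partly set by the naming. Differentiating-progenitor-like cells (106 cells, cluster 11, led by UNCX, EOMES and NEUROD1) had a median of 13414 UMIs. MALAT1 and NEAT1 were among the 2000 variable genes used for clustering. Clustering without the listed genes gave 12301, 1518 and 106 cells in the same 3 classes. The class sizes moved with the resolution of clustering, to 11294, 2525 and 106 cells at 0.3 and to 12279, 1497 and 149 at 1.0.

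MALAT1 and NEAT1 lie on the same strand of chromosome 11 (GRCh38; GENCODE spans on the plus strand), NEAT1 (ENSG00000245532) at chr11:65422774-65445540 and MALAT1 (ENSG00000251562) at chr11:65497640-65508073, 52100 bases apart. SNHG8 (ENSG00000269893) lies at chr4:118278703-118285316 on the plus strand, with SNORA24 at chr4:118279190-118279320 inside it. Every base of the 3 spans is exonic in at least 1 GENCODE transcript. The spans of the minus-strand genes PRSS12 (5279 bases) and ENSG00000270117 (610 bases) overlap those of SNHG8 and MALAT1, and TALAM1, antisense to MALAT1, had no row. The strand used for counting is not given in the sources used here.

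The library was primed at the 3′ end, from runs of A. The mature 3′ ends of MALAT1 and of the long NEAT1 isoform are not polyadenylated, so the longest genomic run of A in MALAT1 is shown, with the run in capitals and 25 bases to each side. The last 80 bases of the NEAT1 span are shown because they hold the A-rich tract (capitals) that folds into the stabilizing triple helix of the long isoform. The count table gives no read positions, so the number of UMIs from these sites and from each isoform was not tested.
MALAT1, chr11:65506073-65506135, plus strand: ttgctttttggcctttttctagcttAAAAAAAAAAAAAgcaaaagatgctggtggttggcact
NEAT1 end, chr11:65445461-65445540, plus strand: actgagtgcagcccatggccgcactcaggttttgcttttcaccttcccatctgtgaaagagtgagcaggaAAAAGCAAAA
The run in MALAT1 is 13 bases long and is the 1 run of at least 10 A in that gene.

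MALAT1 was found in 13920 of 13925 kept cells and made up 10667 CPM (summed UMIs of the gene per 1000000 UMIs of the group). It was lower in forebrain NPC-like cells, at 9821 CPM (9809–9834), than in contractile NPC-like cells, at 13156 CPM (13130–13182), and it was highest in differentiating-progenitor-like cells, at 21772 CPM (21546–22000). Among forebrain clusters, the level was 9522 CPM in cluster 1, 9985 in cluster 2, 11133 in cluster 3, 8841 in cluster 4, 10476 in cluster 5, 6751 in cluster 7, 9785 in cluster 8 and 11515 in cluster 10. It was 13280 CPM in cluster 6 and 8158 CPM in cluster 9. The contractile class was thus high through cluster 6 only, since cluster 9 lay below 7 of the 8 forebrain clusters. The lowest cluster, 7, held cells called as G2/M for 82.0%, with 14900 UMIs in the median cell. Cluster 3, with 99.8% of cells called as G2/M and 25226 UMIs in the median cell, had 11133 CPM.

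NEAT1 differed far more between cells. The level was 81.3 CPM (80.1–82.4) in forebrain NPC-like, 1114 CPM (1107–1122) in contractile NPC-like and 110 CPM (94.9–128) in differentiating-progenitor-like cells. Among forebrain clusters, it was 74.6 CPM in cluster 1, 61.2 in cluster 2, 55.1 in cluster 3, 57.8 in cluster 4, 178 in cluster 5, 31.6 in cluster 7, 60.8 in cluster 8 and 235 in cluster 10. Cluster 6 stood apart at 1140 CPM (1132–1148), whereas cluster 9, the other contractile cluster, had 97.1 CPM (83.2–113). Cluster 5 (leading genes FGF19 and SIX6) and cluster 10 (leading genes PTCHD4 and ZMAT3, targets of p53) followed cluster 6. Cluster 5 had all 8 contractile markers at 50 CPM or above, with a summed level of 8437 CPM, against 16327 in cluster 6 and 929 to 1763 in the other forebrain clusters, and their part in its NEAT1 level was not tested. The intervals of clusters 2, 4 and 8 overlapped one another, as did those of clusters 9 and 11.

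SNHG8 was lowest in forebrain NPC-like cells. The level was 43.0 CPM (42.2–43.9) in forebrain NPC-like, 71.0 CPM (69.1–73.0) in contractile NPC-like and 61.3 CPM (49.9–74.6) in differentiating-progenitor-like cells. Among forebrain clusters, it was 59.5 CPM in cluster 1, 29.4 in cluster 2, 26.5 in cluster 3, 47.0 in cluster 4, 50.7 in cluster 5, 46.5 in cluster 7, 47.5 in cluster 8 and 86.1 in cluster 10. Clusters 6 and 9 had 70.3 and 99.3 CPM. The low clusters were 2, led by histone genes, and 3, with 99.8% of cells called as G2/M. Cluster 7, with 82.0% called as G2/M, was not among them, and the intervals of clusters 4, 5, 7 and 8 overlapped. The intervals of clusters 9 (85.2–115) and 10 (73.0–101) overlapped as well.

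**Figure D1:**
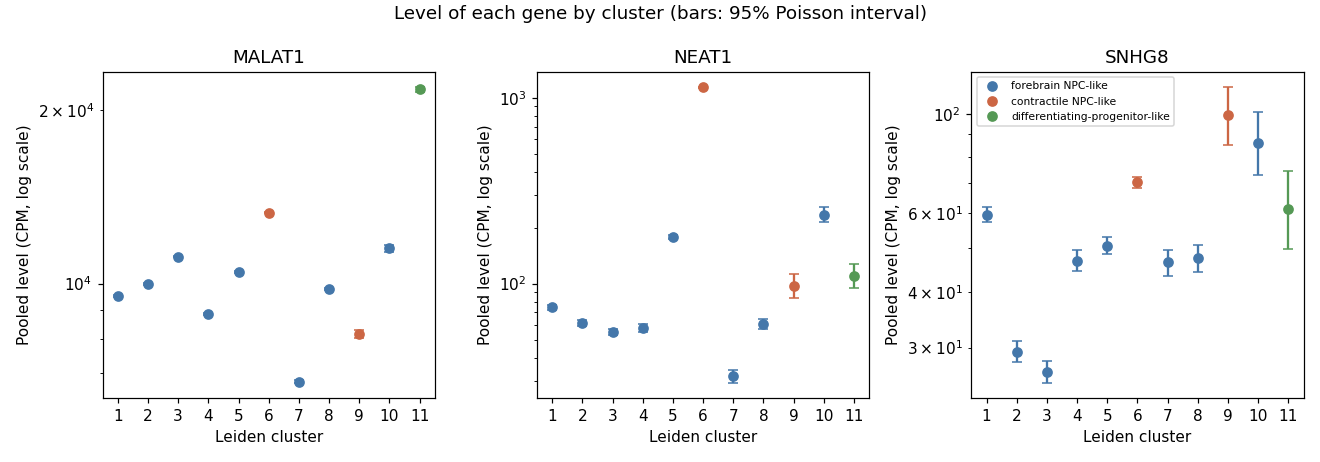
Pooled level (CPM, log axis) of MALAT1, NEAT1 and SNHG8 in each of the 11 clusters of 1 library, coloured by cell class, with 95% Poisson intervals (counting error only). NEAT1 is highest in cluster 6 (1140 CPM), MALAT1 in cluster 11 (21772 CPM) and SNHG8 in cluster 9 (99.3 CPM).

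In the contractile over forebrain comparison, 2 of the 3 measured genes, NEAT1 and SNHG8, were at least 1.5-fold higher and 0 were at least 1.5-fold lower. Of 16734 genes with at least 200 UMIs over both classes, 12% were at least 1.5-fold higher and 37.7% at least 1.5-fold lower, and the median ratio was 0.789. The ratio was 13.7 (13.5–13.9) for NEAT1, above 99.0% of those genes, 1.65 (1.60–1.71) for SNHG8 and 1.34 (1.336–1.343) for MALAT1. Contractile NPC-like cells had more UMIs per cell, so the ratios of UMIs per cell were larger, at 34.4 for NEAT1, 4.14 for SNHG8 and 3.36 for MALAT1. With every cell drawn down to 5000 UMIs, the ratios of levels were 13.9, 1.82 and 1.33. NEAT1 was then found in 76.9% (74.7–79.0%) of contractile NPC-like and 24.2% (23.5–25.005%) of forebrain NPC-like cells, against 91.0% and 50.9% before.

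The class ratio was also read within each cell cycle phase. For NEAT1 it was 20.8 (20.2–21.4) among G1 cells, 9.91 (9.63–10.2) among S cells and 11.4 (11.1–11.7) among G2/M cells. For SNHG8 it was 1.54, 1.56 and 1.97, and for MALAT1 1.54, 1.10 and 1.32. All 9 ratios were above 1, and those of NEAT1 were the widest apart.

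RNA released from broken cells can give UMIs in any barcode. Relative to cluster 6, the leading genes COL8A1 (a collagen chain) and GREM1 (a secreted BMP antagonist) stood at 0.301 to 0.640% in forebrain clusters 1 to 4, 7, 8 and 10 for COL8A1, and at 0.330 to 0.752% for GREM1. NEAT1 stood at 2.78 to 6.54% of its cluster 6 level in clusters 1 to 4, 7 and 8, at 20.6% in cluster 10 and at 15.7% in cluster 5, where COL8A1 and GREM1 stood at 2.00 and 1.59%. Both genes were taken from the leading genes of cluster 6, and so were low elsewhere by choice. The part of released RNA in the NEAT1 level was not tested.

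**Figure D2:**
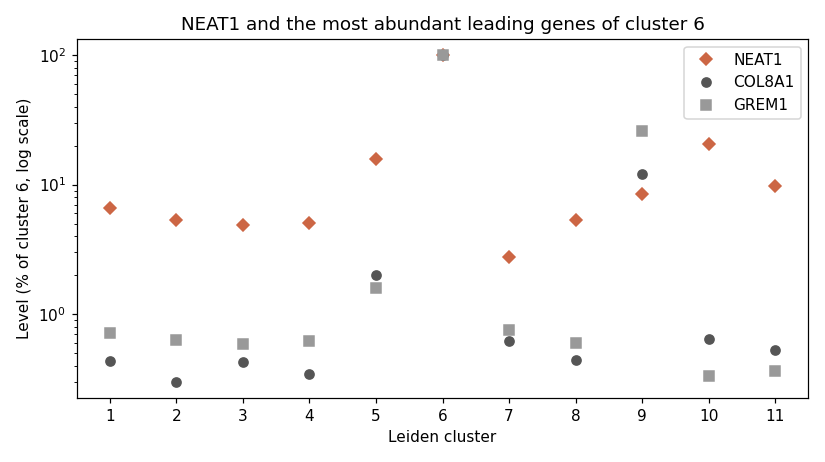
Level of NEAT1, COL8A1 and GREM1 in each cluster as a percentage of the level in cluster 6 (log axis). NEAT1 stays at or above 2.78% in the forebrain clusters, while COL8A1 and GREM1 do not go above 2.00% there.

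Neighbours of NEAT1 did not share its class ratio. Of 11 genes within 100000 bases of NEAT1 or MALAT1 that passed the UMI minimum (both included), the median ratio was 0.940 and the lowest was 0.168, for TIGD3. FRMD8, 9249 bases from NEAT1, had 1.33, and LTBP3, which encodes a TGFβ-binding protein, had 0.568. ZNRD2, 62387 bases from MALAT1, had 1.51. PRSS12, which overlaps SNHG8 on the other strand, was at 3.41 CPM in contractile NPC-like and 1.19 CPM in forebrain NPC-like cells. Its ratio was 2.87 (2.41–3.41), in the same direction as that of SNHG8. NDST3, on the other side of SNHG8, had a ratio of 0.696.

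Genes of the same bodies and pathways gave the surroundings of these values. Of 13 paraspeckle proteins, 1 was at least 1.5-fold higher in contractile NPC-like cells (MATR3, 1.92, from 15.8 against 8.21 CPM). Only the first row of a symbol was read, so the MATR3 value leaves out any further row of that gene. Another 3 were lower, among them CPSF6 (0.623) and NONO (0.651), and the median was 0.783. Of 18 nuclear speckle proteins, 0 were higher and 5 lower (median 0.733). Of 10 other lncRNAs listed as nuclear or chromatin RNAs, 1 was higher, PVT1 with 2.69, and 5 were lower, among them MEG3 with 0.316 and MIAT with 0.383 (median 0.625). That list, used again below, includes NORAD (1.10), and where its RNAs lie in these cells was not measured. The median ratios of paraspeckle and speckle protein genes thus stood near the median ratio of all genes, 0.789.

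Of 15 other snoRNA host genes, SNHG4 (1.99) and SNHG12 (1.53) were at least 1.5-fold higher and EPB41L4A-AS1 (0.561) was lower, with a median of 1.12. Of 10 snoRNP proteins, which bind snoRNAs, 1 was higher (NOP10, 1.65) and 0 were lower (median 1.17). Among 26 mRNAs of ribosomal proteins and translation factors with a terminal oligopyrimidine start (TOP mRNAs), 0 were past 1.5-fold in either direction (median 0.887). Of 15 NMD factors, 0 were higher and 3 lower (median 0.813).

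Stress-response genes were higher in the same class as NEAT1. Of 14 targets of the integrated stress response (ISR), 11 were at least 1.5-fold higher and 0 lower (median 4.004), with STC2, a secreted glycoprotein, at 27.4. Of 16 p53 targets, 10 were higher and 0 lower (median 1.86), with GDF15 (16.4), CDKN1A (10.4), the p21 cell cycle inhibitor, and PINCR (9.40) highest. The summed level of the p53 targets was 747 CPM in cluster 6, 733 in cluster 9 and 1921 in cluster 10, against 349 to 486 CPM in the other forebrain clusters. The list includes PTCHD4 and ZMAT3, leading genes of cluster 10, and was chosen with earlier results of these data known. The sum in cluster 10 may thus be partly set by that choice. Cluster 9 had a p53 target sum near that of cluster 6 and 97.1 CPM of NEAT1. The 2 clusters also differed in depth, with medians of 9624.5 UMIs in cluster 9 and 51586 in cluster 6. Of the 168 cells of cluster 9, 149 had a mitochondrial share below 0.01. The part of p53 or stress signalling in the NEAT1 level was not tested.

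**Figure D3:**
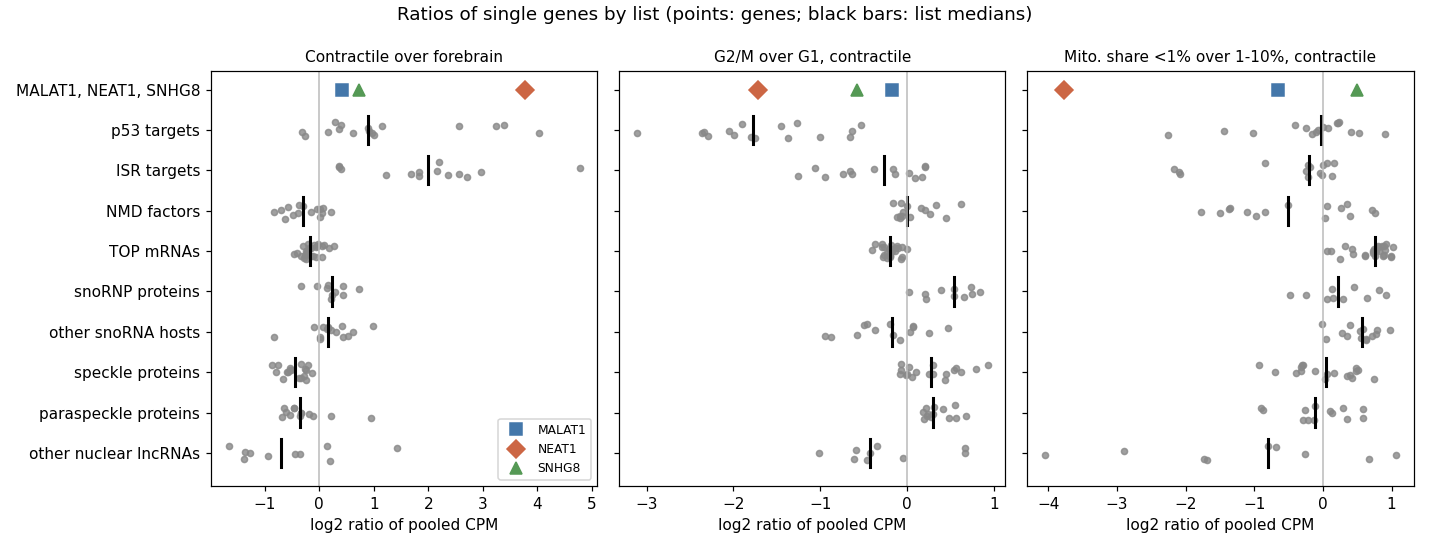
log2 ratio of pooled CPM for single genes of 9 lists (grey points; black bars are medians) and for MALAT1, NEAT1 and SNHG8 in 3 comparisons. NEAT1 lies at 3.78, −1.72 and −3.78 from left to right. The median ratios, before log2, are 1.86, 0.292 and 0.978 for the p53 targets. Those of the ISR targets are 4.004, 0.833 and 0.867.

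In differentiating-progenitor-like against forebrain NPC-like cells, MALAT1 was higher with a ratio of 2.22 (2.19–2.24), or 1.75 per cell. NEAT1 had 1.36 (1.17–1.57) and SNHG8 1.43 (1.16–1.74), so 1 of 3 was at least 1.5-fold higher and 0 were lower, beside 17.8% and 28.9% of 16131 genes. The median cell of cluster 11 had 23321 CPM of MALAT1 (quartiles 15735 and 30316), and the median forebrain NPC-like cell had 9217 CPM (6494 and 12129). The NEAT1 and SNHG8 values rested on 180 and 100 UMIs in the 106 cells. At 5000 UMIs per cell all 3 ratios were past 1.5, at 2.44, 1.71 and 1.79. Cells called as G1 made up 88.7% of cluster 11. Forebrain NPC-like cells called as G1 had 123 CPM of NEAT1, 60.4 of SNHG8 and 10139 of MALAT1. Cluster 11 had 110, 61.3 and 21772 CPM, and only the MALAT1 intervals lay apart. At 5000 UMIs per cell, NEAT1 was 124 CPM (95.6–158) in cluster 11 and 102 (97.4–107) in those G1 cells. SNHG8 was 81.9 (59.3–110) and 60.1 CPM (56.3–64.1), so these intervals overlapped too.

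Of 10 other nuclear lncRNAs, 4 were at least 1.5-fold higher there, with LINC00461, known from neuronal tissue, at 27.5, MIAT at 4.96 and KCNQ1OT1, an imprinted antisense RNA, at 3.42, and 1 was lower (PVT1, 0.288). The median of the 10 was 1.04. The snoRNP proteins were lower, 8 of 10, with DKC1, the pseudouridine synthase, at 0.357 and a median of 0.522 against 0.913 over all genes. Other snoRNA host genes had a median of 0.829, with 0 of 14 higher and 2 lower. Of 16 p53 targets, 2 were higher and 8 lower, and of 14 integrated stress response targets 4 were higher and 7 lower. CLK1, a speckle kinase, had 2.10, and 1 of 18 speckle proteins was higher and 5 were lower.

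Cell cycle phases were compared within forebrain NPC-like cells. SNHG8 stood at 60.4 CPM (58.2–62.7) in G1, 46.1 (44.7–47.5) in S and 31.9 (30.8–33.0) in G2/M, and NEAT1 at 123 (120–126), 74.2 (72.5–75.9) and 68.6 CPM (66.9–70.2). MALAT1 stood at 10139, 9045 and 10437 CPM. For SNHG8 and NEAT1 the 3 phases did not overlap in their intervals and G1 was highest. The clusters rich in G2/M cells differed, however. SNHG8 was at 26.5 CPM in cluster 3 (99.8% G2/M) and 46.5 CPM in cluster 7 (82.0% G2/M), and NEAT1 at 55.1 and 31.6 CPM.

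The G2/M over G1 ratio was 0.527 (0.501–0.555) for SNHG8, 0.557 (0.538–0.577) for NEAT1 and 1.03 for MALAT1, so 2 of 3 were at least 1.5-fold lower and 0 higher. Of 14853 genes, 8.21% were lower and 8.72% higher by that fold (median 1.00). UMIs per cell differed less, with ratios of 0.857 for SNHG8, 0.905 for NEAT1 and 1.67 for MALAT1, as G2/M cells had a median of 21822 UMIs and G1 cells 13540. The NEAT1 ratio was 0.342 among cells with 15000 to 30000 UMIs and 0.39977 over the kept cells of all 3 classes together, contractile NPC-like cells included. Without clusters 5 and 10, which had 6 or more of the 8 contractile markers at 50 CPM or above, the NEAT1 ratio was 0.688, no longer past the fold, and the SNHG8 ratio was 0.512.

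Of 14 other snoRNA host genes, 2 were at least 1.5-fold lower in G2/M, EPB41L4A-AS1 (0.478) and SNHG19 (0.572), and 0 were higher. The median of that list was 0.974, that of the TOP mRNAs 0.833 with 0 of 26 past the fold, and that of the snoRNP proteins 1.22 with 3 of 10 higher (NOP56 at 1.68). Other nuclear lncRNAs ran both ways, from MIAT (0.378) to DLEU2 (4.51). The 14 ratios ran from 0.478 to 1.36 (SNHG12), and SNHG8 (0.527) lay between EPB41L4A-AS1 and SNHG19.

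The phases were also compared in contractile NPC-like cells, a comparison added after the data were seen. NEAT1 was 2561 CPM (2535–2587) in G1, 735 CPM (723–747) in S and 779 CPM (770–788) in G2/M. The ratio of G2/M over G1 was 0.304 (0.2996–0.309), below all but 0.524% of 11841 genes, and 0.388 per cell. SNHG8 was 93.3, 72.0 and 62.7 CPM (ratio 0.672), and MALAT1 was 15580, 9959 and 13792 CPM (ratio 0.885). By the 1.5-fold limit in G2/M over G1, 1 of 3 was lower and 0 higher, against 7.69% lower and 8.83% higher of all genes (median 1.02). The S over G1 ratios were 0.287 for NEAT1, 0.639 for MALAT1 and 0.771 for SNHG8. They lay above those of 0.314%, 5.54% and 14.4% of 10829 genes (median 1.01), and the first 2 were past the fold. NEAT1 was thus high in the 333 G1 cells and close together in S and G2/M.

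The p53 targets were also highest in G1 among contractile NPC-like cells. Their summed level was 1541 CPM in G1, 564 in S and 551 in G2/M, and 15 of 16 were at least 1.5-fold lower in G2/M than in G1 (median 0.292), with PINCR at 0.116, GDF15 at 0.195 and CDKN1A at 0.198. In forebrain NPC-like cells, the sums were 455, 398 and 431 CPM, and 4 of 16 were lower and 1 higher. The contractile markers did not follow, with sums of 13964, 16726 and 16901 CPM in contractile NPC-like cells. Of 14 ISR targets, 6 were at least 1.5-fold lower and 0 higher in G2/M than in G1 of contractile NPC-like cells (median 0.833). The 14 summed to 1196 CPM in G1, 1069 in S and 1087 in G2/M. The part of p53 activity or of the ISR in the NEAT1 level of G1 cells was not tested.

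**Figure D4:**
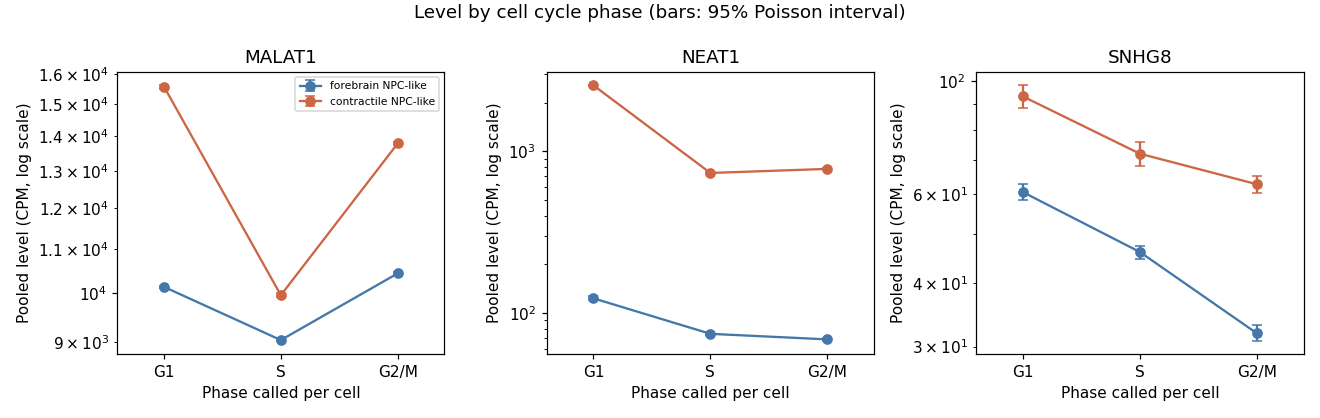
Pooled level (CPM, log axis) by called cell cycle phase in forebrain NPC-like and contractile NPC-like cells, with 95% Poisson intervals. In contractile cells NEAT1 goes from 2561 CPM in G1 to 735 in S, and SNHG8 is lowest in G2/M in both classes (31.9 and 62.7 CPM).

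Cells with a mitochondrial share below 0.01 were taken apart. There were 189, of which 150 were contractile NPC-like and 39 forebrain NPC-like, and 149 of them made up most of the 168 cells of cluster 9. Their median depth was 9536 UMIs, against 18035 UMIs in the other 13736 cells. NEAT1 was 73.8 CPM (62.0–87.2) in these cells and 326 CPM in the rest, a ratio of 0.227 (0.190–0.268). SNHG8 was higher, at 89.3 CPM (76.3–104) against 49.5, a ratio of 1.81 (1.54–2.10), but lower in UMIs per cell (0.784). The NEAT1 ratio was 0.389 as a mean of per-cell CPM and turned to 1.76 among cells with 15000 to 30000 UMIs, of which 15 had the low share. MALAT1 was 8947 against 10677 CPM, a ratio of 0.838. By the 1.5-fold limit, 1 of 3 was higher and 1 lower, beside 10.9% higher and 49.1% lower of 16780 genes (median 0.677).

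Since most of these cells were contractile, the same was read within that class. The low-share side held 149 of its 150 cells in cluster 9 and the other side 1348 of its 1367 cells in cluster 6, so share and cluster cannot be told apart here. NEAT1 was 82.7 CPM (68.9–98.5) below a share of 0.01 and 1136 CPM above it, a ratio of 0.0728 (0.0607–0.0867). MALAT1 was 8447 against 13255 CPM, a ratio of 0.637 (0.626–0.648), and SNHG8 was 99.2 against 70.4 CPM, a ratio of 1.41 (1.19–1.66). Here 2 of 3 genes were at least 1.5-fold lower and 0 higher, beside 42.6% and 11.6% of 12474 genes (median 0.774). Leaving mitochondrial UMIs out of the totals gave 0.0692, 0.606 and 1.34, and drawing each cell down to 5000 UMIs gave 0.0603, 0.633 and 1.37. The median depth was 9605 UMIs below the share of 0.01 and 51282 above it. Per cell, all 3 genes had fewer UMIs, with ratios of 0.122 for MALAT1, 0.0140 for NEAT1 and 0.270 for SNHG8, so the direction for SNHG8 depended on the scale. The MALAT1 ratio of levels lay above those of 40.3% of the genes, and was thus not far from the median gene.

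Other genes of each kind were set beside them. Of 9 other nuclear or chromatin lncRNAs, 6 were at least 1.5-fold lower in the low-share contractile cells, with KCNQ1OT1 at 0.0602, PVT1 at 0.134 and DLEU2 at 0.301, and 2 were higher (MEG3 2.09 and CRNDE 1.59). Of 14 other snoRNA host genes, 6 were higher and 0 lower (median 1.48), with SNHG9 highest at 1.96. Of 26 TOP mRNAs, 20 were higher and 0 lower (median 1.70), and of 15 NMD factors 2 were higher and 7 lower. Of 16 p53 targets, 1 was higher and 3 lower (median 0.978). PINCR, itself a lncRNA, had 1.00.

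Within the forebrain NPC-like class the 39 low-share cells gave other ratios, 1.13 for MALAT1, 0.426 for NEAT1 (12 UMIs) and 1.07 for SNHG8 (16 UMIs). Of these 39 cells, 24 were in cluster 7 and 9 in cluster 3, so share and cluster cannot be fully told apart here either. Cluster 7 had 6751 CPM of MALAT1, 31.6 of NEAT1 and 46.5 of SNHG8, and the 39 cells had 11140, 34.6 and 46.1. Above a share of 0.01, MALAT1 was lower in bins of higher share in both classes, from 11346 to 9167 CPM in forebrain NPC-like and from 14034 to 11394 CPM in contractile NPC-like cells. The mitochondrial UMIs are part of these totals. Without them, the bins had 11652, 10860, 9791 and 9943 CPM in forebrain NPC-like cells. In contractile NPC-like cells they had 14375, 14430, 13784 and 12359 CPM, so not every step was a fall. In the same bins SNHG8 ran from 29.9 to 47.6 CPM and from 65.5 to 86.4 CPM. NEAT1 ran from 64.4 to 84.5 CPM in forebrain NPC-like cells, and in contractile NPC-like cells it was 1186.5, 958, 1234 and 1532 CPM in the 4 bins. Depth differed with the bins, from a median of 60294.5 to 39136 UMIs in contractile NPC-like cells.

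**Figure D5:**
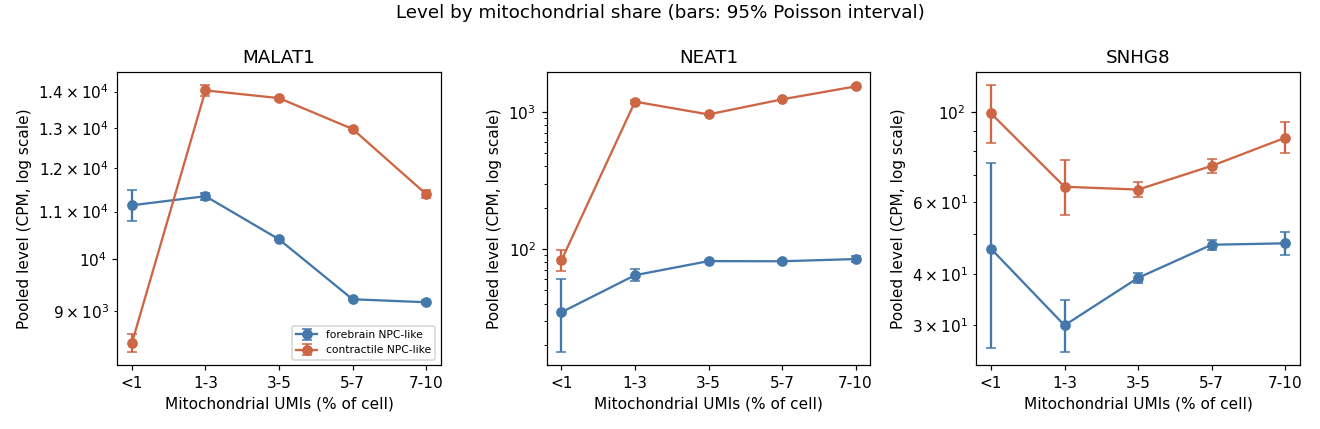
Pooled level (CPM, log axis) by share of mitochondrial UMIs in forebrain NPC-like and contractile NPC-like cells, with 95% Poisson intervals. In contractile cells NEAT1 is 82.7 CPM below a share of 1% and at least 958 CPM in the other bins, MALAT1 is lowest below 1% (8447 CPM) and SNHG8 is highest there (99.2 CPM).

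Some cells held almost no MALAT1. All 5 kept cells without a MALAT1 UMI were in cluster 9, had 7669 to 17286 UMIs and had mitochondrial shares of at most 0.41%. With a limit of 1000 CPM, set after the values were seen, 27 kept cells lay below, 24 of them in cluster 9 (14.3% of its cells, 9.37–20.5%), 2 in cluster 6 and 1 in cluster 10. Of the 27, 20 had a mitochondrial share below 0.01. The 24 cells of cluster 9 had 2 NEAT1 UMIs among 274530 UMIs, and 109 CPM of SNHG8.

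The spread of single cells around the mean of their cluster was also taken. At 5000 UMIs per cell, the variance of NEAT1 over its mean was 9.25 in cluster 6, against a median of 1.40 over 173 genes of like mean, and 1.34 to 3.30 in the other clusters. The quartiles of NEAT1 in single cells of cluster 6 were 284 and 1340 CPM. MALAT1 had 30.5 in cluster 9, against a median of 3.78 over 23 genes of like mean, and 5.72 to 25.4 elsewhere, where 1 to 13 genes, itself included, had a like mean. SNHG8 had 0.916 to 1.38, against medians of 1.03 to 1.10 over genes of like mean. It lay below them in clusters 2, 4 and 11 and above them in the rest. Among these were clusters 6 (1.28 against 1.06), 9 (1.38 against 1.10) and 10 (1.15 against 1.07). As this measure moves with the mean and the genes differ in mean, the values of different genes are not compared. MALAT1 and NEAT1 UMIs of single cells at equal depth correlated most in cluster 6 (Pearson 0.382, Spearman 0.288, 1349 cells) and cluster 5 (0.292 and 0.232, 1454 cells). They were near 0 in cluster 7 (0.000255 and −0.00694, 1183 cells), as was SNHG8 with MALAT1 in cluster 6 (−0.0433 and −0.0641). These are descriptions over cells that share 1 library.

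The genes whose levels over the 11 clusters were most like each gene were found among 12914 genes with at least 1000 UMIs, by Pearson correlation of log2(CPM + 1). For NEAT1 they were RBMS3 (0.951), SERTAD2 (0.951) and CAMK2D (0.945). For MALAT1 they were SUPT7L (0.943), PID1 (0.942) and HECTD3 (0.926), and for SNHG8 they were YPEL5 (0.946), FAHD1 (0.933) and ZNF581 (0.920). CAMK2D, a calcium-dependent kinase gene, was at 773 CPM in contractile NPC-like and 117 CPM in forebrain NPC-like cells. The 11 points share 1 library, and the highest of many correlations are high by choice.

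Start sequences of the host genes were read from the RefSeq promoter windows (GRCh38.p14), in which MALAT1 and SNHG8 had an entry and NEAT1 had none. The search, on the strand of the gene, was for a C followed by at least 4 bases that are each C or T, beginning within 10 bases of an annotated start, as in TOP mRNAs. SNHG8 is shown with other measured hosts to let these starts be compared. Each line has 30 bases on each side of the start, and capitals mark the matching run.
SNHG8, chr4:118278732-118278791, plus strand: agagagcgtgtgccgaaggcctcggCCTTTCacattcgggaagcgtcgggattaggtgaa
ZFAS1, chr20:49278612-49278671, plus strand: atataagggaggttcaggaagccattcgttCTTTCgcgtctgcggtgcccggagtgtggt
SNHG12, chr1:28581844-28581903, minus strand: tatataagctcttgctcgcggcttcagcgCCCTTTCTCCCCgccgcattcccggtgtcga
SNHG19, chr16:2155329-2155388, minus strand: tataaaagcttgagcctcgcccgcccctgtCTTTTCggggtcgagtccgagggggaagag
EPB41L4A-AS1, chr5:112160496-112160555, plus strand: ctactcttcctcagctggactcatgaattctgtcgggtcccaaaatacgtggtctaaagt
The run of SNHG8 is 6 bases long and begins 5 bases before the annotated start, and EPB41L4A-AS1 has no match. A match was found in 10 of 13 measured host genes with an entry (SNHG8 included), in 20 of 21 genes of the translation list and in 38.4% of 27305 genes, so this short pattern is common. EPB41L4A-AS1, without a match, and SNHG19, with one, were both lower in G2/M, like SNHG8.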

How the data were processed

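The authors deposited raw UMI counts per gene and barcode, made with Cell Ranger 7.0.1 at default parameters on GRCh38 (Chromium 3′ HT library). In this release the default also counts intronic reads. The annotation version and strand are not given in the sources used here. All barcodes carry 1 suffix, so loading wells cannot be told apart.

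The listed genes, gene lists and tests were chosen with earlier results of these data known. Kept cells were scaled to 10000, log-transformed and reduced to 30 components of 2000 variable genes, then clustered (20 neighbours, resolution 0.5). Tools were Python 3.11.15, scanpy 1.11.5, leidenalg 0.10.2, igraph 0.11.9, scipy 1.17.1, numpy 2.4.6, pandas 2.3.3, scikit-learn 1.9.0 and matplotlib 3.10.9. Clusters were named from marker lists. A class needed 3 markers or more at 20 CPM and 3-fold above the other cells. Remaining clusters with 3 or more markers each of forebrain and of progenitors at 50 CPM were named forebrain NPC-like. Phases came from the 43 S and 54 G2/M genes of Seurat 5.3.0, which hold none of the listed genes. Scrublet marked 275 of 14726 barcodes, and none were removed. Thinning to 5000 UMIs left out 28 kept cells.

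Levels carry exact Poisson, ratios exact conditional and shares exact binomial (Clopper-Pearson) 95% intervals. The first 2 cover the counting of UMIs and the last the drawing of cells from 1 library. The calculation of ratios and intervals was checked on simulated counts of known fold. Ratios were computed for genes with at least 200 UMIs over both groups. A listed symbol with more than 1 row was read from its first row. Of each other list, counts past 1.5-fold and the median were taken, naming at most the 3 highest and 3 lowest ratios. For each measured gene, the 3 most like genes were named. Alternatives changed the scale, depth, doublets, mitochondrial limit, fold, resolution and phase calls. Spans of genes were taken from GENCODE 44. Some items are not reported here.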

Additional observations from a re-analysis of the deposited data

Results flagged for a closer look

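Barcodes that the quality filter removed carried signal of all 3 genes, which the comparisons above do not use. In 520 barcodes with fewer than 2000 genes, MALAT1 was at 12076 CPM, NEAT1 at 832.55 CPM and SNHG8 at 29.6 CPM, against 10667, 324 and 49.7 CPM in kept cells. In 94 barcodes with more than 10000 genes, the levels were 11565, 1436.5 and 57.0 CPM. In 187 barcodes with 2000 to 10000 genes and a mitochondrial share of 0.1 or more, they were 14468, 901 and 29.2 CPM. NEAT1 was thus higher than in kept cells in each of the 3 sets. The class of these barcodes was not called, and the cause was not tested.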

How the results depend on the processing

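The number of the 3 measured genes past 1.5-fold was 2 between contractile and forebrain cells, 2 between phases, 2 by mitochondrial share and 1 in differentiating-progenitor-like cells. A limit of 2-fold gave 1, 0 and 1 for the first 3 counts. Between classes, UMIs per cell, cells with 15000 to 30000 UMIs and a lower limit on the fold each gave 3, as MALAT1 passed too (ratios 3.36 and 1.54 in the first pair). UMIs per cell gave 1 between phases, which was MALAT1, higher (1.67), while SNHG8 and NEAT1 no longer passed. For mitochondrial share, the forebrain class alone gave 1, and a share of 0.01 to 0.03 over 0.07 to 0.1 gave 0. In differentiating-progenitor-like cells, the mean of per-cell CPM, removal of the highest 8% of doublet scores, a mitochondrial share below 0.05 and resolution 0.3 each gave 2, and thinning and a lower limit on the fold gave 3. Leaving out clusters 5 and 10, an alternative chosen after seeing the data, gave 1 between phases and 2 in differentiating-progenitor-like cells, and leaving out cells with a share below 0.01 (chosen likewise) kept 2 between classes.

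For mitochondrial share, direction turned for SNHG8 in UMIs per cell (0.784), for NEAT1 in cells with 15000 to 30000 UMIs (1.76, from 15 low-share cells) and for MALAT1 within forebrain NPC-like cells (1.13). It also turned for SNHG8 (0.712) and MALAT1 (1.27), but not NEAT1 (0.938), for a share of 0.01 to 0.03 over 0.07 to 0.1. Between phases, MALAT1 turned from 1.03 to 0.978 over all kept cells. The cause was not tested. The class ratio of NEAT1 ran from 9.73 to 34.4 and that of SNHG8 from 1.59 to 4.14 over 12 alternatives, all past 1.5-fold. No paired analysis was possible because there is 1 library and no result comes from a test. The 106 differentiating-progenitor-like and 189 low-share cells limit the precision of SNHG8 and NEAT1 there.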

Other observations

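Genes for the proteins of the same nuclear bodies did not share the phase values of NEAT1 in contractile NPC-like cells. In G2/M over G1, 0 of 13 paraspeckle protein genes were at least 1.5-fold lower and 1 was higher (SFPQ, 1.60, which binds NEAT1), with a median ratio of 1.23, and the NEAT1 ratio was 0.304. Of 18 nuclear speckle protein genes, 0 were lower and 3 were higher, with the splicing factors SRSF7 at 1.90 and SRSF2 at 1.74 (median 1.21). Of 10 snoRNP protein genes, 0 were lower and 4 were higher, led by the pseudouridine synthase DKC1 at 1.79 (median 1.45), and the SNHG8 ratio was 0.672. Over all genes, 8.83% were higher and 7.69% lower by that fold (median 1.02). These are values of 1 library with no test.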
